A study of Mus musculus with 41 samples.

Results

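The report covers the comparison of naïve CD4+ T cells with wild-type Th2 cells at the end of their first differentiation cycle, by bisulfite sequencing (BS-seq) of the Il4 locus. Its members are the samples whose titles name naïve or Th2 cells, BS-seq and a replicate from 1 to 3, without a mouse line. The titles of these Th2 samples name no cycle, which was taken from the culture protocol they share with the samples titled as first cycle. These are 6 of the 41 samples of the series, 3 per group. All came from C57BL/6 mice aged 8 to 16 weeks, with genotype wild type and no further treatment in the labels. Naïve cells were sorted from spleen and lymph nodes as CD25-negative cells with high CD62L and low CD44. Th2 cells were grown from such cells for 2 days on plates coated with antibodies to CD3 and CD28 (1 µg/ml), with IL-4 (1000 U/ml) and an antibody to IFN-γ (1 µg/ml), and then with IL-2 (20 U/ml) for 3 days by the labels and 4 days by the methods. The comparison asks which CpGs lose modified cytosine as the cells take on the Th2 fate. The replicates of the Th2 group are called cultures 1, 2 and 3 here, after their replicate numbers, which carry no order. The labels do not say whether each came from another animal, so p-values measure the spread between these samples, which may be partly technical.

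Methylation of cytosine at CpGs usually goes with closed, silent chromatin. It can be lost passively at replication or actively by excision, and oxidation by TET enzymes can precede either route. Bisulfite turns unmodified cytosine into a base read as T and leaves 5-methylcytosine and 5-hydroxymethylcytosine as C, so the share of C is the level of both together (5mC + 5hmC). Il4 encodes interleukin-4, the defining cytokine of Th2 cells, and its regulation involves the transcription factor GATA3, an upstream conserved element (CNS1), an intronic element (HSII) and a downstream element (CNS2).

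A level is 100 times the C reads over all C and T reads of a CpG. The 6 libraries held 146171, 19966 and 143532 CpG reads (naïve replicates 1 to 3) and 175625, 185470 and 194999 (Th2 cultures 1 to 3). The median per CpG was 226 reads in naïve replicate 2 and between 1702.5 and 2264.5 in the other 5 libraries. Naïve replicate 2 had at least 100 reads at 56 of the 64 CpGs, and at most 5 reads at each CpG of exon 1. The 95% intervals given for a library were computed by Wilson's method. Because PCR copies were not told apart by molecular identifiers, such an interval holds only the error of counting. Of the cytosines outside CpGs, 0.227% to 0.256% were read as C in each of the 6 libraries. No marker gene was measured, so the cell type labels could not be checked against expression. The CpGs of an amplicon share their molecules and are not independent measurements.

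Culture 3 stood apart from cultures 1 and 2, with the highest level of the 3 at 50 of the 63 CpGs with enough reads, and at all 28 CpGs called below. The squared difference between a pair of libraries over its counting variance, averaged over CpGs, was 107 between cultures 1 and 3 and 76.9 between cultures 2 and 3. It was 22.7 between cultures 1 and 2, and 8.18 between naïve replicates 1 and 3. This ratio grows with depth, so pairs with naïve replicate 2, the shallowest library, were not set beside these. Region means and the CpGs with the largest losses are therefore also given without culture 3.

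In first-cycle Th2 cells the 5mC + 5hmC level was lower than in naïve cells at 28 of the 56 CpGs tested (50.0%) and higher at 0 (quasi-binomial test moderated with limma, Benjamini-Hochberg adjusted p under 0.05). The smallest adjusted p was 0.00142, and before adjustment p was under 0.05 at 29 CpGs. The 28 CpGs comprised 12 of 17 in CNS1 and 1 of 4 in the promoter. They also comprised 4 of 9 in intron 1 and exon 2, 5 of 5 in HSII (its 3′ region), 0 of 5 in exon 3 and 6 of 16 in CNS2. At 34 of the 56 CpGs (60.7%) all 3 Th2 libraries lay below every naïve library, and at 1 (1.79%), CpG47 at the start of intron 3, all 3 lay above. Without culture 3, 38 of 56 CpGs were called. Leaving out this library, nearest to naïve cells and apart from cultures 1 and 2, raised the mean loss of most regions and narrowed the spread. More calls were to be expected from either effect, and these were not told apart. The count also depended on single naïve libraries, with 11 calls without naïve replicate 1 and 14 without naïve replicate 3. In CNS1 these were 4 and 5 calls, and in HSII 0 and 2. Called in each of the 6 fits that left out 1 library were 10 CpGs: 4, 5, 6, 11, 29, 31, 48, 49, 50 and 63.

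**Figure D1:**
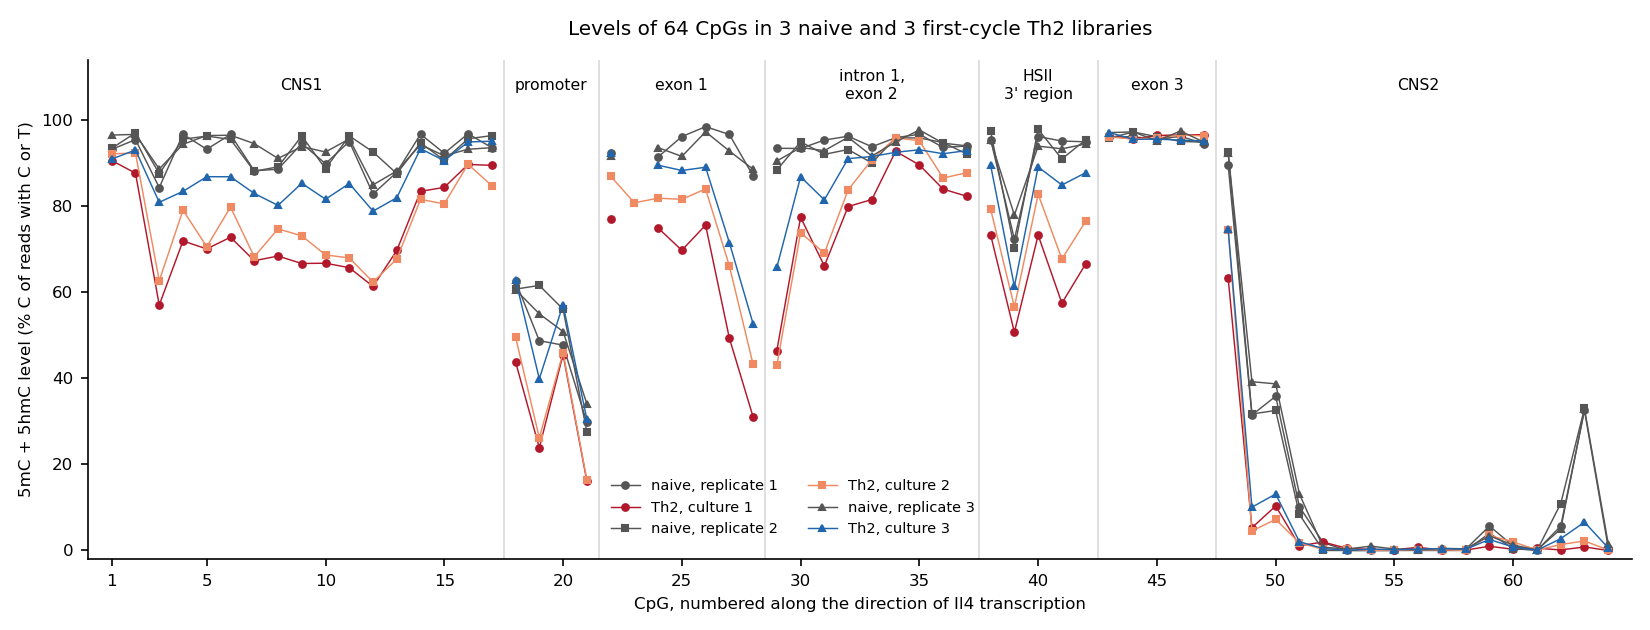
The 5mC + 5hmC level (percent, vertical axis) of the 64 CpGs in order along the gene (horizontal axis), one line per library, for levels with at least 100 reads. The naïve lines (grey) run close together, while the Th2 lines fan out most outside exon 3 and CNS2, with culture 3 (blue) the highest of the 3 Th2 lines at 50 of 63 CpGs.

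The loss was deepest around the boundary of exon 1 and intron 1. At CpG28 in exon 1 (mm9, chromosome 11, position 53431995, 176 bases into the gene) the level was 87.0% and 88.5% in naïve replicates 1 and 3, from 438 and 784 reads. It was 31%, 43.2% and 52.6% in Th2 cultures 1, 2 and 3, from 864, 1377 and 1136 reads. All 3 cultures lay far below both naïve libraries, and culture 3 had lost the least. The mean loss was 45.5 points ± 10.9 (combined SD, n = 2 and 3), the largest of the 63 CpGs, and 50.6 points without culture 3. At CpG29 (53431923), on a separate amplicon in intron 1, the naïve levels were 93.4%, 88.3% and 90.4% and the Th2 levels 46.4%, 43% and 65.7%. The groups were again well apart, with cultures 1 and 2 close together and culture 3 about midway. The fall was 39.0 points ± 12.5 (n = 3 and 3, adjusted p = 0.00142, quasi-binomial regression), and 46 points without culture 3.

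CpG27 (53432007), 12 bases from CpG28, had 96.6% and 92.8% in the naïve libraries with enough reads, and 49.3%, 66.1% and 71.5% in the Th2 cultures. Here culture 1 was the lowest by a wide margin, and the groups did not overlap. The loss of 32.4 points ± 11.9 ranked 3 of 63, and was 37 points without culture 3. Naïve replicate 2 had too few reads for the test at all 7 CpGs of exon 1, and CpG23 had too few in 4 further libraries as well. Without that library 63 CpGs could be tested and 29 were called, among them CpG26, CpG27 and CpG28 (adjusted p = 0.0209, 0.00958 and 0.00687).

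From CpG28 outwards the mean loss faded over 138 bases upstream and 218 bases downstream, and the flanks differed between cultures. Upstream, cultures 1, 2 and 3 lost 22.3, 13.9 and 8.82 points at CpG26, 39 bases away, and 24.1, 12.3 and 5.56 points at CpG25, 45 bases away. They lost 17.6, 10.7 and 3.00 points at CpG24, 69 bases away, and 15, 5.07 and -0.185 points at CpG22, 138 bases away. The upstream flank was thus widest in culture 1. Of these 4 CpGs only CpG26 was called in the fit without naïve replicate 2, the one that could test them. By that quasi-binomial test the adjusted p was 0.0521 at CpG25, 0.0799 at CpG24 and 0.247 at CpG22. Without culture 1 the mean loss went from 14 to 8.91 points at CpG25, from 10.4 to 6.83 at CpG24 and from 6.64 to 2.44 at CpG22, and without culture 3 it was 10.0 at CpG22. Downstream the mean loss was 39.0 points at CpG29, 72 bases away, 14.6 and 21.2 at CpG30 and CpG31, 112 and 116 bases away, 10.2 at CpG32, 195 bases away, and 3.87 at CpG33, 218 bases away. CpG33 lost 10.3 points in culture 1, 1.03 in culture 2 and 0.299 in culture 3. The fade was not smooth, since CpG31 lost more than CpG30 although the pair is 4 bases apart. In exon 2 the mean loss of the 4 CpGs was at most 6.79 points (CpG36), and the quasi-binomial test called none with all 6 libraries. With limma in place of that test CpG35 and CpG36 were called, and with all 10 groups in the fit CpG35, CpG36 and CpG37. CpG33 in intron 1 and CpG35, CpG36 and CpG37 in exon 2 were each called in 1 of the 6 fits without 1 library, that without culture 3. The highest adjusted p of the 6 fits was 0.964, 0.358, 0.205 and 0.418. The sequence of the peak is shown to place these CpGs (minus strand, chr11:53431903-53432019, mm9), with CpG27, CpG28 and CpG29 in capitals.
CpG27 to CpG29: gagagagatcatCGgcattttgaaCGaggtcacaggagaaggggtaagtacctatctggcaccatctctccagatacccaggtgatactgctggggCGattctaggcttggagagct

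**Figure D2:**
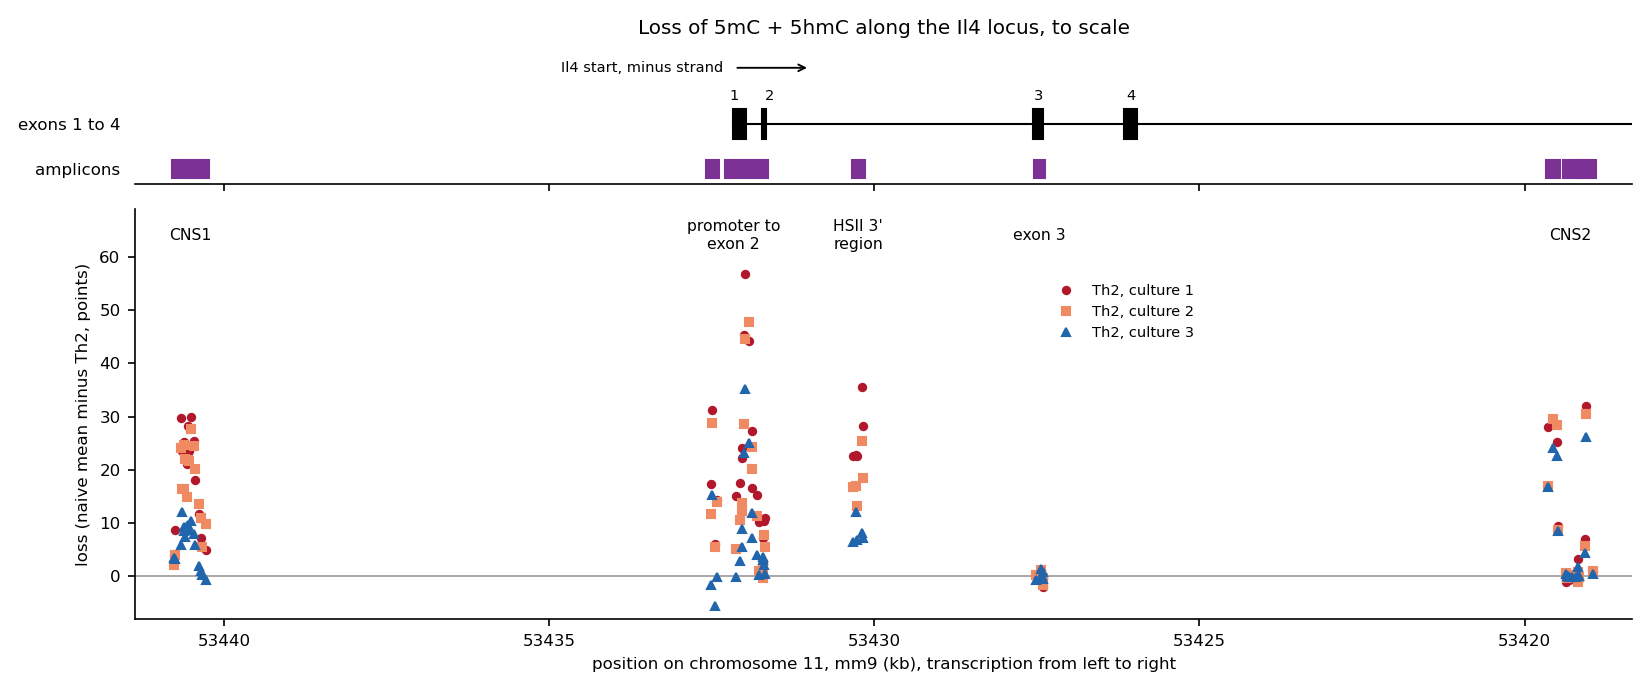
Map of the locus to scale, with the amplicons and the 4 exons of Il4 (top) and the loss of each CpG in each Th2 culture against the naïve mean, in percentage points (bottom), by position on chromosome 11 in kb. The highest points stand at the boundary of exon 1 and intron 1, where CpG28 lost 56.7, 44.5 and 35.1 points in cultures 1, 2 and 3, and exon 3 lies at 0.

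CNS2 lost the largest share of what it had. In naïve cells this element, also known as hypersensitive site V, held most of its modified cytosine at its edges and little in its core. At CpG63 (53419056) the naïve libraries had 32.5%, 33.0% and 32.8%, the second from 100 reads, and the Th2 cultures 0.816%, 2.21% and 6.56%. Culture 3 kept the most, and all 3 cultures were far below the naïve libraries. CpG63 fell by 29.6 points ± 3.01 (n = 3 and 3, adjusted p = 0.00142), which was 90.3% of its naïve level, and by 31.3 points without culture 3. At CpG49 (53419562), on the opposite edge, the naïve levels were 31.5%, 31.7% and 39.2% and the Th2 levels 5.29%, 4.53% and 10.0%. The groups did not overlap and the fall was 27.5 points ± 5.32 (adjusted p = 0.00142), or 80.6% of the naïve level, and 29.2 points without culture 3. CpG50 (53419508) had 35.8%, 32.5% and 38.7% in naïve and 10.3%, 7.21% and 13.1% in Th2 libraries. Its groups were also apart, with a fall of 25.5 points ± 4.27 (adjusted p = 0.00268), and 26.9 points without culture 3.

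Next to them, CpG51 (53419486) started near 10.5% and ended near 1.63%, with 10.1%, 8.36% and 13.1% in the naïve libraries and 1.10%, 1.76% and 2.03% in the Th2 cultures. All 3 cultures were close to 0, and the fall of 8.90 points ± 2.44 was called (adjusted p = 0.00879), though not without naïve replicate 1 (adjusted p = 0.0559) or replicate 3 (adjusted p = 0.0684). CpG48 (53419636), 74 bases outside CpG49, started from a higher level. It had 89.4%, 92.4% and 92.3% in naïve cells and kept 63.2%, 74.3% and 74.6% in the Th2 cultures, with culture 1 the lowest. In the core between the edges, the naïve mean over 11 CpGs was already 1.37%, 1.39% and 1.2%, so that little could be lost there. The one called CpG of the core, CpG62 next to CpG63, went from 5.67%, 10.9% and 4.98% to 0.120%, 1.37% and 2.75% (adjusted p = 0.0496). Of the 6 fits without 1 library it was called in 1, that without culture 3, with adjusted p = 0.116, 0.200 and 0.0899 without naïve replicates 1, 2 and 3. With the replicate number as a block CpG62 was not called either. The windows around the edges, on the minus strand at chr11:53419474-53419574 and chr11:53419036-53419093, have these CpGs in capitals.
CpG49 to CpG51: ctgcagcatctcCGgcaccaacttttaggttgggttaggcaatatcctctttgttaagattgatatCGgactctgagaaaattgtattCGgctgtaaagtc
CpG62 and CpG63: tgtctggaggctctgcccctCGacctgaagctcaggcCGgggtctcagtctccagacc

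In CNS1, an enhancer upstream of the gene, the loss was broad and even across its middle. CpGs 3 to 13 spanned 53440443 to 53440668 and lost between 14.7 points (CpG13) and 22.7 points (CpG11). CpG11 (53440513) had 95%, 96.3% and 95.6% in naïve cells and 65.7%, 67.9% and 85.2% in Th2 cells. Cultures 1 and 2 were low together and culture 3 was much nearer to naïve cells. The fall was 22.7 points ± 10.7 (adjusted p = 0.0037), and 28.8 points without culture 3. CpG3 (53440668) had 84.3%, 87.5% and 88.6% in naïve cells and 57.0%, 62.6% and 80.8% in the Th2 cultures. Its lowest naïve library was only slightly above culture 3. Its fall of 20.0 points ± 12.7 (adjusted p = 0.0127) was 27 points without culture 3, and was not called without naïve replicate 1 (adjusted p = 0.0617) or replicate 3 (adjusted p = 0.078).

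The mean loss in CNS1 was smaller on both sides. CpG1 and CpG2 lost 3.14 and 5.37 points, and from CpG14 to CpG17 the loss was 9.11, 6.40, 3.79 and 4.74 points. Cultures 1, 2 and 3 lost 7.19, 11 and 0.983 points at CpG15, and 5.03, 9.76 and -0.580 at CpG17. The mean loss of CpG17 was thus 2.23 points without culture 2 and 7.40 without culture 3, and that of CpG15 was 4.08 and 9.10. With all 6 libraries only CpG14 was called of these 6 CpGs (adjusted p = 0.0217), and of the 6 fits without 1 library it was called in 1, that without culture 3. Of these 6 fits, CpG2, CpG15, CpG16 and CpG17 were also called in that one alone. Their highest adjusted p of the 6 fits was 0.252, 0.399, 0.567 and 0.637, and CpG1 was called in none of the 6. With all 10 groups in the fit CpG2 and CpG15 were called, and with limma CpG2. By amplicon, the mean over CpGs 1 to 8 was 92%, 92.8% and 94.3% in naïve libraries and 73.2%, 77.4% and 85.6% in cultures 1 to 3. Over CpGs 9 to 13 it was 90%, 92.2% and 91.0% against 66.0%, 67.9% and 82.5%. Over CpGs 14 to 17 it was 94.8%, 94.3% and 93.1% against 86.7%, 84.1% and 93.4%. In the first and the second amplicon the groups were apart, while in the last one culture 3 lay among the naïve libraries and cultures 1 and 2 below them. Without culture 3 the mean losses of the 3 amplicons were 17.7, 24.1 and 8.68 points. The middle of CNS1 on the minus strand, chr11:53440501-53440563, shows the closely spaced CpGs of the second amplicon in capitals.
CpG9 to CpG11: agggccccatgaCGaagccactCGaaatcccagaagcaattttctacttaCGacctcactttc

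The 3′ region of HSII, in intron 2, had 90.7%, 90.3% and 90.9% over its 5 CpGs in naïve libraries and 64.2%, 72.5% and 82.5% in the Th2 cultures. The naïve libraries were almost equal, and the cultures were spread over 18.2 points below them. The largest loss was at CpG41 (53430188), with 95.1%, 90.9% and 93.3% against 57.4%, 67.7% and 84.9%. Its cultures differed by 27.4 points, the widest range of the 63 CpGs. The fall of 23.1 points ± 14 (adjusted p = 0.00789) was 30.5 points without culture 3, and was not called without naïve replicate 1 (adjusted p = 0.0636) or replicate 3 (adjusted p = 0.061). All 5 CpGs were called with all 6 libraries, 0 without naïve replicate 1 (adjusted p = 0.0555 to 0.0636) and 2 without naïve replicate 3, CpG38 and CpG40.

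The promoter was only partly modified in naïve cells, and one CpG stood out. CpG19 (53432501) had 48.7%, 61.5% and 55.0% in naïve cells and 23.9%, 26.2% and 39.8% in Th2 cells. All 3 cultures were below the naïve libraries, and the naïve libraries themselves varied. The fall was 25.1 points ± 10.8 (adjusted p = 0.00717), or 45.6% of the naïve level. It was 30.1 points without culture 3, and without naïve replicate 3 the adjusted p was 0.0519. CpG18, 15 bases away, had 62.5%, 60.7% and 60.6% in naïve cells and 43.8%, 49.6% and 62.9% in Th2 cells. CpG20 had 47.7%, 56.0% and 50.8% against 45.5%, 45.9% and 57.1%, and CpG21 had 29.7%, 27.5% and 34.1% against 16.2%, 16.4% and 30.5%. At these 3 CpGs culture 3 was within or above the naïve range while culture 1 was below it, and none was called with all 6 libraries. CpG18 and CpG21 were each called in 1 of the 6 fits without 1 library, that without culture 3, and their highest adjusted p was 0.491 and 0.349. With all 10 groups in the fit CpG21 was called.

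The amplicon of exon 3 stayed highly modified. Its mean over 5 CpGs, the last of them in intron 3, was 95.6%, 95.8% and 96.3% in naïve and 96.2%, 96% and 95.7% in Th2 libraries. The groups overlapped, and the difference of -0.0728 points ± 0.446 was smaller than its error. The single CpGs ranged from a loss of 1.29 points at CpG44 to one of -1.30 points at CpG47.

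Since all Th2 libraries come from a single time point, the order of loss is an order of size within each culture and not one in time. As a share of the mean naïve level, counted for the 51 CpGs with a naïve mean of at least 10%, the 4 CpGs with the largest share lost in culture 1 were CpG63 (97.5%), CpG51 (89.5%), CpG49 (84.5%) and CpG50 (71.1%). In culture 2 the first 4 were CpG63 (93.3%), CpG49 (86.7%), CpG51 (83.3%) and CpG50 (79.8%). In culture 3 they were CpG51 (80.8%), CpG63 (80%), CpG49 (70.5%) and CpG50 (63.2%). The first 4 ranks thus went to CpGs at the edges of CNS2 in each culture, and ranks 5 to 7 to CpG28, CpG19 and CpG29. More than 50% of the naïve level was lost at 6, 7 and 4 of the 51 CpGs in cultures 1, 2 and 3.

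Those shares use a common naïve mean. With each culture set against the naïve library of the same number, so that no library is shared, CpGs 63, 51, 49 and 50 again took the first 4 of 45 ranks in every pair, followed by CpG19 and CpG29 at ranks 5 and 6. This ranking lacks exon 1, which naïve replicate 2 does not cover. The losses in points of the 56 tested CpGs correlated between pairs with Spearman's rho 0.902 (pairs 1 and 2), 0.813 (1 and 3) and 0.770 (2 and 3). The points are CpGs that share amplicons, so the values describe these libraries only.

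**Figure D3:**
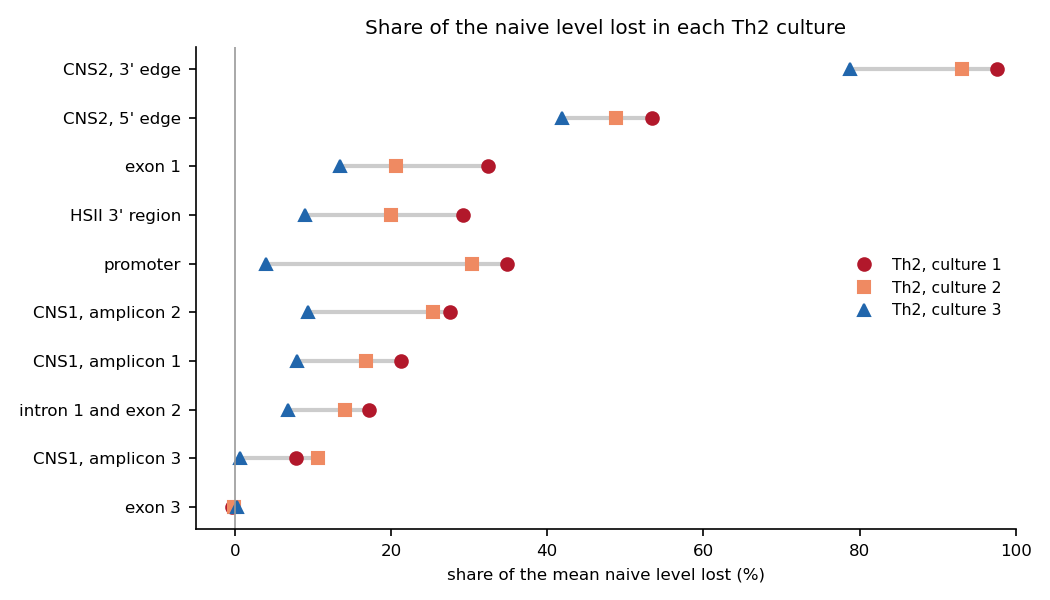
Share of the mean naïve level lost (percent, horizontal axis) in each region (vertical axis), one point per Th2 culture with a grey bar over their range. The edges of CNS2 lost the most in every culture, from 41.9% to 97.6%, and culture 3 had the lowest share in each region except exon 3.

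Ordered by points, the rank of CNS2 depended on how it was averaged. Among the 7 regions, each an unweighted mean over its CpGs and CNS2 taken with its nearly unmodified core, exon 1 lost the most in each culture, with means 30.2, 19.2 and 12.6 points below the naïve mean in cultures 1, 2 and 3, and the 3′ region of HSII came next with 26.4, 18.1 and 8.19 points. CNS1 ranked 3 in cultures 1 and 2 (18.4 and 16.5 points) and 5 in culture 3 (6.15 points). The mean over the 16 CpGs of CNS2 with enough reads ranked 6 in cultures 1 and 2 (8.29 and 7.56 points) and 3 in culture 3 (6.53 points), and exon 3 ranked 7 in all 3 cultures. Weighted by reads, the mean loss over the 3 cultures was 12.3 points in CNS2, above 11.3 in CNS1 and 11.4 in the promoter. On its own, the 5′ edge of CNS2 lost 22.9, 21 and 18 points, more than exon 1 in cultures 2 and 3. The second amplicon of CNS1 lost 25.1, 23.1 and 8.52 points, more than exon 1 in culture 2. Among single CpGs the 5 largest losses were CpG28, 27, 29, 41 and 63 in culture 1, CpG29, 28, 63, 49 and 19 in culture 2, and CpG28, 63, 29, 49 and 27 in culture 3.

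The spread between cultures differed between regions. The range over the 3 cultures was 18.2 points in the 3′ region of HSII, 17.6 in exon 1, 15.3 in the promoter, 12.3 in CNS1, 9.70 in intron 1 and exon 2, 4.96 at the 5′ edge of CNS2 and 0.555 in exon 3. The loss of culture 3 was 78.4% of that of culture 1 at the 5′ edge of CNS2 and 80.7% at its 3′ edge. The 3′ edge holds only CpG63 and CpG64, and CpG64 had a naïve mean of 1.09%, so its ratio is nearly that of CpG63 alone. The ratio was 41.7% in exon 1, 39.8% in intron 1 and exon 2, 33.4% in CNS1, 31% in HSII and 11.5% in the promoter. Of these regions, culture 3 thus had the smallest part of the loss of culture 1 in the promoter. The ratios at the edges of CNS2 have a ceiling, since a loss cannot exceed the low naïve level there and culture 1 was close to 0 at CpG63. In what was left at CpG63, culture 3 stood apart there too, at 6.56% against 0.816% and 2.21%. At CpG48, which started at 89.4% to 92.4%, cultures 1, 2 and 3 lost 28.1, 17.1 and 16.8 points, so that culture 3 was level with culture 2. Culture 2 lay closer to culture 1 than to culture 3 in some regions, with 91.4% of the loss of culture 1 at the 5′ edge of CNS2, 89.5% in CNS1 and 68.6% in HSII. In exon 1 it had 63.5% of that loss and lay closer to culture 3, with levels of 62.9%, 73.9% and 80.5% in cultures 1, 2 and 3. In the last amplicon of CNS1 culture 2 had lost more than culture 1 (9.98 against 7.39 points).

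The median SD over 63 CpGs was 5.57 points between Th2 libraries and 1.16 points between naïve libraries, where the read counts alone give 0.535 and 0.754 points. The latter are a lower bound, since the counts do not tell copies of 1 molecule apart. The SD between Th2 libraries was above that between naïve libraries at 49 of 63 CpGs. Culture 1 was the lowest Th2 library at 42 of 63 CpGs, culture 2 at 14 and culture 3 at 7. Over the 28 called CpGs the median loss was 24.4, 20.9 and 8.63 points in cultures 1, 2 and 3. Over the 63 CpGs it was 15, 11.4 and 3.66 points. Culture 3 had the most CpG reads of the 6 libraries and the lowest share of C outside CpGs, at 0.227%. The cause of its smaller loss was not tested.

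For region means a two-sided exact permutation test was used, in which 3 libraries against 3 allow no p below 0.1. The p was 0.1 for CNS1, intron 1 and exon 2, the 3′ region of HSII and CNS2, where the groups did not overlap. It was 0.2 for the promoter, where culture 3 (47.6%) lay above naïve replicate 1 (47.1%). For exon 1, with 2 against 3 libraries, it was 0.2, the smallest possible there. For exon 3 it was 0.9. Without culture 3 the mean loss was 17.5 points in CNS1, 16.1 in the promoter, 24.7 in exon 1, 14.7 in intron 1 and exon 2, 22.3 in HSII, 7.92 in CNS2 and -0.221 in exon 3.

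The series holds other wild-type Th2 cells of the first cycle, the controls of the TET and TDG mutant lines, with 2 libraries each. In one of the TDG control libraries the reads of 2 samples with the same library name were added together. The labels give them as wild type and untreated, while by the methods the controls of the lines with an inducible Cre were given tamoxifen as well. What this treatment does to the values was not tested. They show where the 3 cultures stand among such cells. In CNS1 the 4 control libraries had 56.1% and 56.1% (TET line) and 69.7% and 70.4% (TDG line), against 74.2%, 76.2% and 86.5% in cultures 1 to 3. All 3 cultures lay above all 4 control libraries, by 15.9 points ± 10.4 on average. The p was 0.0571, the smallest that an exact permutation test of 3 against 4 allows. That test ignores the line, although the control libraries were nearly equal within a line and far apart between lines. At the 5′ edge of CNS2 the direction was opposite, with 26.1% and 26.7% (TET line) and 29% (TDG line) against 20.0%, 22% and 24.9%. Here all 3 cultures lay below the 3 control libraries with reads, with a difference of -4.98 points ± 2.93 and p = 0.1 by the same exact test, the smallest p for 3 against 3.

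In the other regions the groups overlapped, as they did in the last amplicon of CNS1. In that amplicon culture 2 (84.1%) lay below both TDG control libraries (85.4% and 84.4%). Cultures 1 and 3 (86.7% and 93.4%) lay above all control libraries there. In exon 1 the control libraries had 65.4%, 59.9%, 73.3% and 70.1% and the cultures 62.9%, 73.9% and 80.5%. In HSII the control libraries had 65.9%, 63.6%, 69% and 68.6%, inside the range of 64.2% to 82.5% of the cultures apart from the lowest. Single CpGs gave 0 calls of 46 tested (0%) by quasi-binomial regression, with a smallest adjusted p of 0.0751. This test took the 4 control libraries as a single group, so differences between the TET and TDG lines entered its spread. An unadjusted p under 0.05 was found at 14 CpGs, each higher in the 3 cultures. Leaving out 1 library gave between 7 CpGs (without the first TET control) and 16 (without culture 1). At 16 of 46 CpGs (34.8%) the cultures lay above every control library. The 46 hold no CpG of CNS2, where the second TDG control library had no reads. With 10 groups in the fit, 14 of the 46 were called higher. That fit also took the TET and TDG controls as a single group, and it added naïve cells and the mutant and second-cycle cells. Without the second TDG control library 5 of 63 were called higher, namely CpG3, CpG4, CpG6, CpG7 and CpG8 in CNS1. At CpG3 the control libraries had 30.3%, 30.0%, 43.1% and 50.1%, below the lowest culture at 57.0%.

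**Figure D4:**
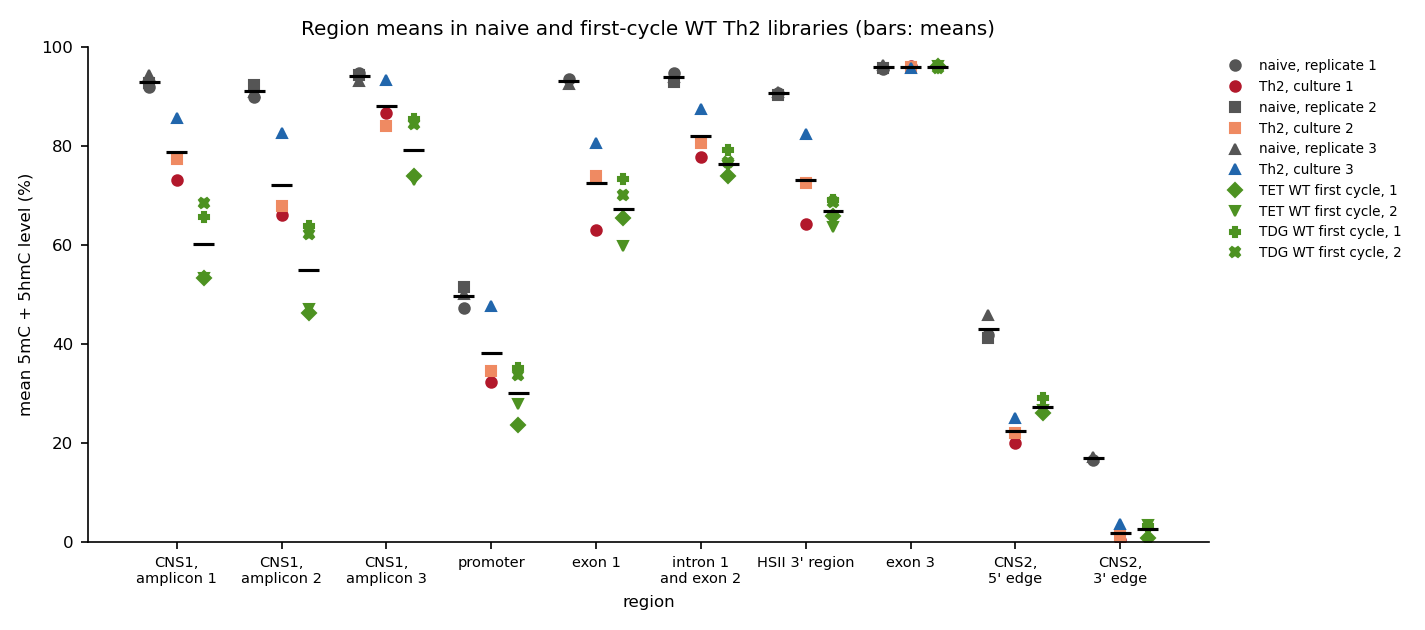
Mean 5mC + 5hmC level (percent, vertical axis) per region (horizontal axis) in the naïve libraries, the 3 Th2 cultures and the control Th2 libraries of the TET and TDG lines, one point per library and a bar at each group mean. In the first and the second amplicon of CNS1 the 3 cultures lie between the naïve and the control libraries. In the last amplicon of CNS1 they overlap both, and at the 5′ edge of CNS2 they are the lowest of the 3 groups.

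Other readouts of the same CpGs hold few libraries, with a single one per group in TAPS. In TAPS, which reads modified cytosine as T, the T share over CNS1 was 92.8% in naïve and 52.4% in Th2 cells, whose title names no cycle and whose label gives the culture protocol of the 3 cultures. The TAPS difference was largest at CpG28 (99.7% against 24.8%) and CpG27 (93.9% against 31.2%), and in exon 3 the mean was 92.2% against 94.5%. Pyridine borane sequencing reads 5fC and 5caC, the later products of TET oxidation, as T. Between TDG-deleted and control first-cycle Th2 cells its largest difference was also at CpG28, with 5.72% against 0.493%, followed by CpG7 with 4.96% against 0.619%. Each group was the sum of 2 samples with the same library name. Taken one by one, the differences at CpG28 were 5.50 and 4.99 points. In a further pair, in which TDG was deleted by CD4-Cre, the values at CpG28 were 6.22% against 0.160%. There CpG28 ranked 5 of 47 CpGs, and the largest difference was at CpG11, with 9.18% against 0%. The mean over CNS1 differed by 1.73 and 1.74 points in the first pair, sample by sample, and by 4.50 points with CD4-Cre. In the 3′ region of HSII the mean was 0.423% against 0.342% in the first pair and 0.556% against 0.405% with CD4-Cre, and its CpGs went both ways. The difference ranged from -0.284 points at CpG42 to 0.426 at CpG38 in the first pair, and from -0.918 at CpG41 to 1.00 at CpG40 with CD4-Cre. Across 46 CpGs, Spearman's rho between the mean bisulfite loss and the TAPS difference was 0.838, and with the difference in 5fC and 5caC it was 0.605 in the first pair and 0.451 with CD4-Cre. These points share amplicons, and the cells differ between the assays.

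Single libraries of Th2 cells with a mock or a Gata3 guide RNA were set beside the 3 cultures. By the methods such cells came from Rosa26-Cas9 mice, were transduced with retrovirus and were sorted for reporters. What these steps do to the values was not tested. At CpG28 the level was 26.6% with mock, and 63.5% and 55.7% with the guides, where the cultures had 31% to 52.6%. At the edges of CNS2 the CpGs differed. At CpG63 it was 6.14% with mock and 6.19% and 7.38% with the guides, close to culture 3. At CpG49 it was 8.07% with mock and 21.6% and 22.5% with the guides, and at CpG50 13.3% against 21.1% and 19.7%. Over the 4 CpGs of the 5′ edge the mean was 24.8% with mock and 32.8% and 32.1% with the guides. The guide libraries were thus above the mock library at the 5′ edge, and all 3 were below the naïve libraries at CpG49, CpG50 and CpG63.

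The letters GATA, on either strand, were looked up in windows of 41 bases centred on each CpG, since GATA3 binds such sites. They occurred in 15 of the 64 windows (23.4%), in 4 of the 20 windows of the CpGs with the largest mean loss, among them CpG29 and CpG50, in 5 of the 28 called, and in 7 of the 28 tested and not called. A match is a description of the letters and shows no binding.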

How the data were processed

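Amplicon reads had been mapped to mm9 with BSMAP, and the deposited counts (C reads, and C plus T reads, per cytosine) were used. Amplicons were placed by matching the study's primers to the converted genome, and the 64 CpGs were numbered along Il4 transcription. Samples carrying the name of 1 library were merged. A CpG needed at least 100 reads in each library used. Region means were unweighted, and naïve replicate 2 was left out of exon 1 and the 3′ edge of CNS2. CpGs were compared by a quasi-binomial test with Williams weights and a dispersion moderated by squeezeVar of limma 3.58.1 and not below 1, with Benjamini-Hochberg adjustment. The test was first run on simulated data. Errors of a difference combine the SDs of both groups. Pyridine borane C reads were multiplied by 0.5, and TAPS shares were used as deposited. Read counts end at 65535 in some libraries of other groups, at exon 3 of a TET control library and at CpG14 to CpG17 of the mock and guide libraries. Named CpGs were the 20 with the largest mean loss, the largest and smallest loss of each region, exon 1 and the CpGs or ranges named in the study. CpGs 2, 6, 8, 13 to 18, 21, 30, 32, 33, 35, 36, 37, 38, 51 and 62 were singled out after their values were seen, and the CD4-Cre pair was added then. Members and lists were chosen with earlier results of these data known. Python 3.11.15 (numpy 2.4.6, scipy 1.17.1, pandas 2.3.3, statsmodels 0.14.6, matplotlib 3.10.9) and R 4.3.3 were used.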

Additional observations from a re-analysis of the deposited data

Results flagged for a closer look

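Th2 culture 3 held reads at 101 cytosines of the plus strand, the strand that was not amplified, with at most 1 read at each. The other 5 libraries of the comparison had 0 such cytosines. These reads enter no value of the report, and their origin was not tested.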

How the results depend on the processing

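The direction of loss was kept in all alternatives for CNS1, the promoter, exon 1, intron 1 and exon 2, the 3′ region of HSII and CNS2. The difference of exon 3, near 0, changed sign. Leaving out 1 library gave 11.3 to 17.5 points for CNS1, 8.51 to 16.1 for the promoter, 15.9 to 24.7 for exon 1, 9.83 to 14.7 for intron 1 and exon 2, 13.2 to 22.3 for the 3′ region of HSII, 7.05 to 7.92 for CNS2 and -0.271 to 0.0569 for exon 3. Weighting by reads gave 12.3 points for CNS2.

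Leaving out 1 library gave between 11 and 38 calls against naïve cells. A minimum of 500 reads left 18 CpGs and called 5, with fewer CpGs tested. With 20 reads 28 of 57 were called, with limma on log2((C + 1)/(T + 1)) 32, with all 10 groups in the fit 34, and with a minimum difference of 10 points 25. With the replicate number as a block 27 were called, without CpG62. The deviations of same-numbered naïve and Th2 libraries correlated at 0.0592, -0.0938 and -0.02, so the numbers were not taken to pair the samples, and not every library correlated best with its own number.

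Against the control libraries of the TET and TDG lines, all 10 groups in the fit gave 14 calls, and leaving out 1 library gave 0 to 5. The difference of exon 3 ranged from -0.147 to 0.13 points, and that of the CNS2 core from -0.0164 to 0.141, when 1 library was left out. The cause of these changes was not tested. Of 211 alternatives for 31 named CpGs, 210 kept the direction and moved by less than the SD, and 1 reversed, CpG20 without naïve replicate 2, whose loss ranged from -0.25 to 5.80 points when 1 library was left out. Naïve replicate 2 was too shallow for exon 1 and the 3′ edge of CNS2. At 500 reads exon 1 lost 20.1 points against naïve replicate 3 alone, and the loss at the 3′ edge had no value. The correction for unconverted C kept the direction of every region mean and named CpG.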
